A study of Mus musculus with 8 samples.

Results

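*Chka* and 9 other genes of phosphatidylcholine synthesis were followed on the arrays of 4 Co mice and 4 Pg mice. The genes are *Chka*, *Chkb*, *Etnk1*, *Pcyt1a*, *Pcyt1b*, *Pcyt2*, *Chpt1*, *Cept1*, *Pemt* and the choline transporter gene *Slc44a1*. Every spot that is not a control and carries one of these names was taken, which gave 19 probes of 10 genes among the 56605 probes and 37074 names on the array. Of these, 18 probes of 9 genes were well above background on at least 4 of the 8 arrays and were tested. The genes were selected on the known difference in log2 signal between these Co and Pg arrays, so their differences are given as descriptions, without a p-value.

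All mice were C57BL/6J, 12 weeks old, and male by the study's methods, and no allele or transgene is named. Co mice received 100 μL of saline intravenously. Pg mice received sonicated *Porphyromonas gingivalis* in the same volume, at a dose that the sample labels print as 108 CFU and the methods write as 10 to the 8th power. RNA labelled as BAT, by the methods from the interscapular fat, was collected 18 h later and hybridized to 1 Agilent one-color array per mouse.

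Phosphatidylcholine is the main phospholipid of animal membranes and of the surface of lipid droplets. In the Kennedy pathway choline is brought into the cell by transporters such as SLC44A1 and phosphorylated by the choline kinases. Phosphocholine is then activated to CDP-choline by CTP:phosphocholine cytidyltransferase, usually the rate-limiting step, and joined to diacylglycerol by the final transferases. A parallel branch makes phosphatidylethanolamine from ethanolamine, and PEMT converts that lipid to phosphatidylcholine by methylation, chiefly in the liver.

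Each Co array had 34760 to 35831 probes well above background, and each Pg array 31132 to 34063. The Co arrays formed row 1 of a slide and the Pg arrays row 2, so slide row and injection cannot be told apart. Of 10 genes listed as brown adipocyte markers, 7, among them *Cidea*, were well above background on all 8 arrays. *Ucp1*, *Elovl3* and *Slc27a2* were so on none. Whether the signal of the 7 came from brown adipocytes or from muscle was not tested. *Ucp1*, the defining gene of brown adipocytes, had a log2 signal (the log2 of the background-subtracted and quantile-normalized intensity) of 2.09 to 2.26. All 12 skeletal muscle genes were well above background on every array, with *Tnnt3* at 18.81 to 18.84 and *Acta1* at 18.41 to 18.57. These markers go against a sample made of brown fat alone, and BAT is used below only as the label. The mean log2 signal of 8 adipocyte genes was 11.25 on Co replicate 2 and 11.33 on Pg replicate 1 against 10.31 to 10.74 on the other 6 arrays. *Adipoq* had 11.31 and 11.09 there against 9.61 to 10.23, whereas *Fabp4*, *Lipe* and *Lep* did not have their 2 highest values on this pair of arrays. In such bulk tissue, fewer cells of a type and less RNA per cell cannot be told apart, and the part of the tissue's make-up in the values below was not tested.

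The genes in which a probe had an FDR q under 0.1 (Benjamini-Hochberg, over all probes tested) are *Chka*, *Chpt1* and *Slc44a1*. The start of each of their 60-base probes is shown, since the probes of one gene gave different values and lie at different places in its transcripts. The first 30 bases are printed 5′ to 3′, with positions of the whole probe in mm9 as the scanner output gives them. All 3 *Chka* probes list the RefSeq transcripts NM_013490 and NM_001271496. They lie at chr19:3864699-3864758, at chr19:3887411-3889045 (a span longer than the probe, which crosses a junction between exons) and at chr19:3893508-3893567, all on the plus strand.
Chka A_55_P2080956: cagcgttggcgatgagcctcggaaagtgct
Chka A_52_P420045: tctccagttgtattttgtcataatgactgt
Chka A_55_P1956223: atgtctcactactgagcaccgatgtgtatg

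The *Chpt1* probes lie on the minus strand, the first at chr10:87951131-87951190, from base 612 of NM_144807, and the second at chr10:87936834-87936893, from base 2566 of the same transcript. The second has a GC content of 23.3%, the lowest among the 19 probes.
Chpt1 A_52_P655803: ggatgttcatgttttactgtgctcattggc
Chpt1 A_52_P78770: agggtaatttcttcctagacaataaaaaga

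The 4 *Slc44a1* probes lie on the plus strand and differ in the transcripts they list. A_55_P2081790 (chr4:53562876-53562935) lists NM_001159633, A_55_P2048041 (chr4:53573963-53574022) and A_52_P84901 (chr4:53635105-53635164) list NM_133891, and A_55_P2727384 (chr4:53580403-53580462) lists ENSMUST00000107651.
Slc44a1 A_55_P2081790: ttgaaagcctggagcagagccagaaaactg
Slc44a1 A_55_P2048041: tgatacaaaatacaatgatgggagccctgg
Slc44a1 A_55_P2727384: tttaggagatgtcccttcaaagtgacgtga
Slc44a1 A_52_P84901: attattgctacagagataactgccctgtag

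*Chka* encodes choline kinase alpha, which makes phosphocholine and also accepts ethanolamine. Its brightest probe, A_55_P1956223, had log2 signals of 7.35, 7.17, 6.96 and 7.00 on the Co arrays. On the Pg arrays they were 6.27, 6.21, 6.75 and 5.97, all below the lowest Co array, with Pg replicate 3 nearest to the Co mice. The difference was -0.82 ± 0.17 (SE, n = 4 arrays each; 95% interval -1.21 to -0.43), a 1.76-fold lower signal in Pg mice. The probe was well above background on all 8 arrays.

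The second *Chka* probe, A_55_P2080956, had log2 signals of 5.17, 5.17, 5.36 and 5.05 in Co mice. In Pg mice they were 4.93, 4.63, 4.39 and 3.43, again without overlap, but only 1 of the 4 Pg arrays was well above background there. The difference was -0.84 ± 0.29 (SE, n = 4 each; 95% interval -1.52 to -0.16). The third, A_52_P420045, had 5.18, 3.89, 4.25 and 4.11 in Co mice and 3.96, 3.84, 4.30 and 4.59 in Pg mice. Here the groups overlapped, and 3 Co arrays and 1 Pg array were well above background. The difference was -0.19 ± 0.29 (95% interval -0.87 to 0.49), and it was 0.09 without Co replicate 1 and 0.01 without normalization between arrays. The 2 *Chka* probes whose groups did not overlap lie before and after the probe whose groups overlapped. Since A_55_P2080956 and A_52_P420045 were each well above background on only 1 Pg array, no pattern along the transcript is read from this.

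The size of the *Chka* difference moved with the background correction. For A_55_P1956223 it was -0.51 with limma's normexp on the mean signal and -0.54 with the unsubtracted median signal, both under the fold change limit of 1.5, and -0.63 in the authors' normalized values. For the dimmer A_55_P2080956 these values were -0.17, -0.25 and -0.24. Over all 18 alternative settings the difference of A_55_P1956223 was below 0, between -0.97 and -0.51.

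**Figure D1:**
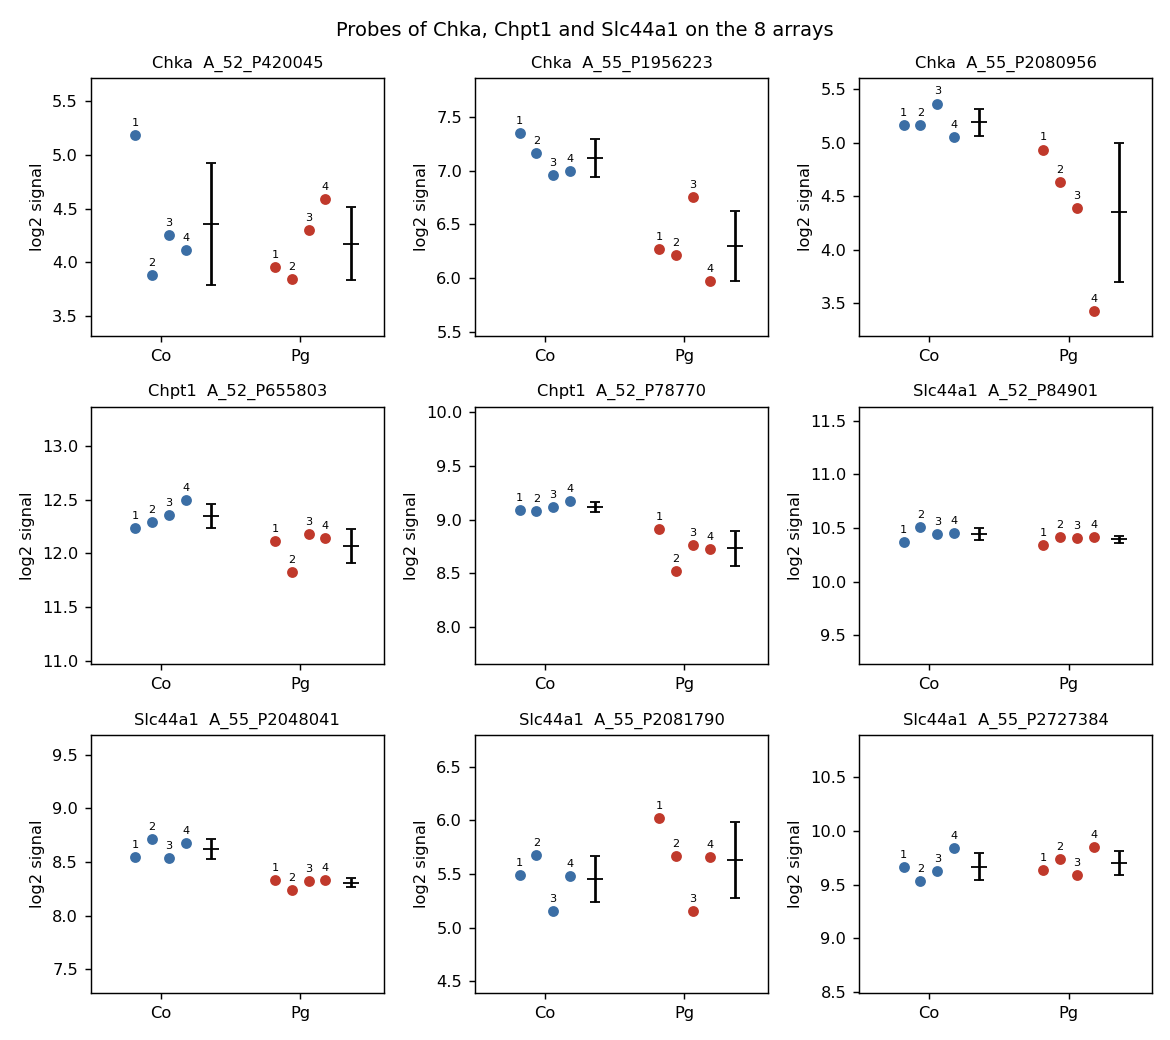
Log2 signal (y axis, quantile-normalized; each panel spans the same 2.4 units of log2 signal) of the 9 probes of *Chka*, *Chpt1* and *Slc44a1* on the Co arrays (blue) and Pg arrays (red), with the replicate number above each point and the mean ± SD (n = 4) in black. The Pg arrays lie below all Co arrays for 2 *Chka* probes, both *Chpt1* probes and 1 of 4 *Slc44a1* probes.

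The other kinase genes differed less. *Chkb*, which encodes choline kinase beta, had log2 signals of 12.77 to 12.86 in Co mice and 12.49 to 12.78 in Pg mice, so that the highest Pg array, replicate 4, lay just within the Co range. Its difference was -0.17 ± 0.07 (SE, n = 4 each; 95% interval -0.34 to -0.00). The probe also lists the read-through transcripts NR_037153 and NR_037154 beside the *Chkb* transcript NM_007692, and their signals cannot be told apart. For *Etnk1*, an ethanolamine kinase gene, both probes overlapped between the groups, with differences of 0.08 ± 0.08 for A_51_P229599 and -0.21 ± 0.23 for the dimmer A_55_P2819896.

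At the cytidyltransferase step no tested probe separated the groups. *Pcyt1a*, which encodes the main isoform of the enzyme, had 13.37, 13.29, 13.41 and 13.32 in Co mice and 13.19, 13.08, 13.21 and 13.29 in Pg mice. Only Pg replicate 4 reached the Co range, and the difference was -0.15 ± 0.06 (SE, n = 4 each; 95% interval -0.30 to -0.01). *Pcyt1b*, the gene of the second isoform, had 1 probe. It was well above background on none of the 8 arrays, with 2.13 to 2.18 in Co mice and 2.40 to 3.04 in Pg mice, and was not tested. *Pcyt2* encodes the cytidyltransferase of the ethanolamine branch. Its differences were 0.05 ± 0.09 for A_55_P2831588 (95% interval -0.15 to 0.26) and -0.17 ± 0.24 for A_55_P2112225 (95% interval -0.73 to 0.40).

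The final transferase genes had differences of opposite sign. *Chpt1* encodes choline phosphotransferase, which joins CDP-choline to diacylglycerol. Its probe A_52_P78770 had 9.09, 9.08, 9.12 and 9.18 in Co mice and 8.91, 8.52, 8.76 and 8.73 in Pg mice, a difference of -0.38 ± 0.09 (SE, n = 4 each; 95% interval -0.58 to -0.19). The other probe, A_52_P655803, had 12.24, 12.29, 12.36 and 12.50 in Co mice and 12.12, 11.83, 12.18 and 12.14 in Pg mice, a difference of -0.28 ± 0.10 (95% interval -0.51 to -0.06). Neither probe overlapped between the groups, and Pg replicate 2 was lowest on both. *Cept1* encodes the choline/ethanolamine phosphotransferase, which serves both branches. It had 10.92 to 11.21 in Co mice and 11.09 to 11.23 in Pg mice, with a difference of 0.09 ± 0.07 (95% interval -0.08 to 0.26).

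For *Pemt*, the gene of the methylation route, A_55_P1970860 had 10.28 to 10.42 in Co mice and 10.14 to 10.24 in Pg mice. The groups did not overlap and the difference was small, -0.14 ± 0.05 (SE, n = 4 each; 95% interval -0.27 to -0.01). The second *Pemt* probe, A_55_P1970846, differed by -0.16 ± 0.13 and overlapped.

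*Slc44a1* encodes a choline transporter of the plasma membrane and mitochondria. Only A_55_P2048041 of its 4 probes separated the groups, with 8.54, 8.72, 8.54 and 8.68 in Co mice and 8.33, 8.24, 8.32 and 8.33 in Pg mice. The difference was -0.31 ± 0.06 (SE, n = 4 each; 95% interval -0.46 to -0.17). A_52_P84901, which lists the same RefSeq transcript, had 10.37 to 10.51 in Co mice and 10.34 to 10.42 in Pg mice, a difference of -0.05 ± 0.05 (95% interval -0.17 to 0.07). The 2 remaining probes had differences of 0.18 ± 0.19 for A_55_P2081790 and 0.04 ± 0.09 for A_55_P2727384. In the authors' normalized values, which hold no entry for A_55_P2048041, the difference of A_52_P84901 was -0.21.

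**Figure D2:**
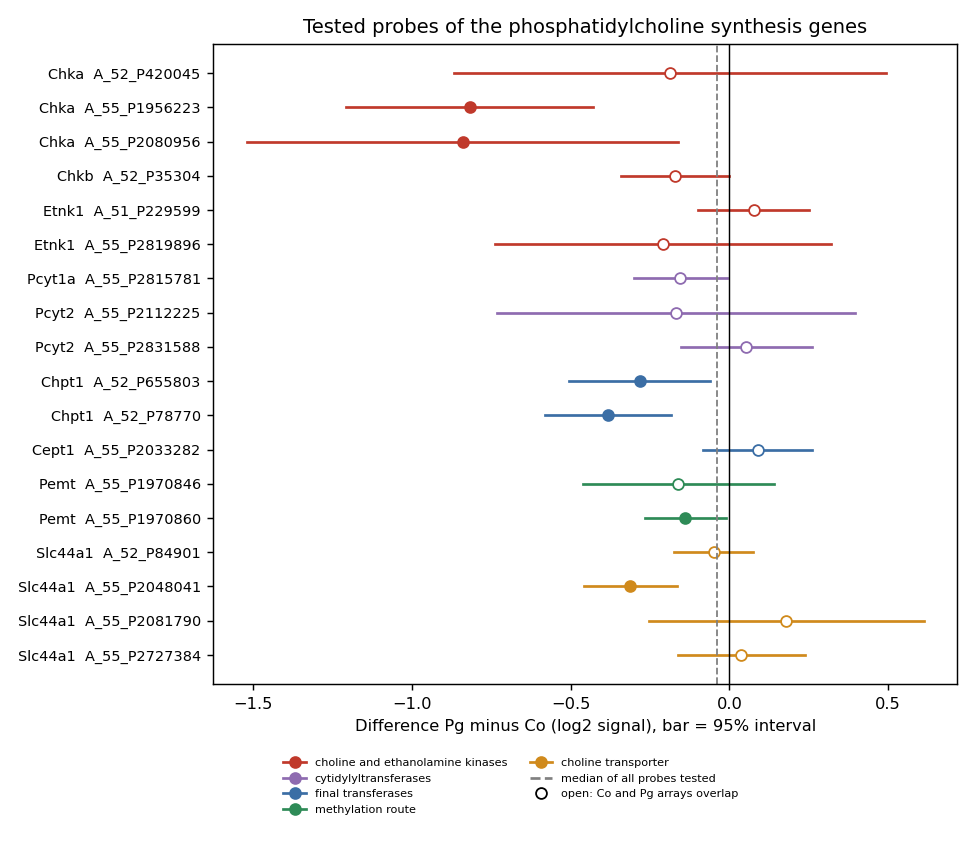
Difference in log2 signal between Pg and Co mice (x axis; negative is lower in Pg mice) of the 18 tested probes (y axis), colored by step of the pathway, with 95% intervals from the limma fit (n = 4 arrays each). Filled points mark the 6 probes whose Co and Pg arrays do not overlap, and the dashed line is the median of all 33819 probes tested, -0.04.

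Counted together, 3 of the 18 probes had an FDR q under 0.1 in the limma fit, 1 each of *Chka*, *Chpt1* and *Slc44a1*, and all were lower in Pg mice. Among all 33819 probes 7.82% had such a q, 6% on the lower side. The *Chka* probe A_55_P1956223 alone also had a fold change above 1.5, which makes it a DEG by the study's limits, and 1.61% of all probes met both, 1.3% on the lower side. For 6 of the 18 probes the groups did not overlap, all with the Pg arrays lower, against 15.8% of all probes in either direction and 11% on the lower side. Of these 6, *Chka* A_55_P2080956 was well above background on only 1 Pg array. The median difference of the 18 probes was -0.16 against -0.04 for all probes (-0.08 with 75th percentile scaling, where that of all probes was -0.02). Of the 18 probes 13 were lower and 5 higher in Pg mice, beside 19516 lower and 14303 higher of all 33819. Without normalization between arrays 6 of the 18 probes and 18954 of all probes were higher. Since the genes were chosen with these values known, nothing further is read from the counts.

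The count of 3 depended on single arrays. It stayed at 3 without Pg replicate 3, was 1 when replicate 1 of either group was left out, and was 0 when Co replicate 2, 3 or 4, or Pg replicate 2 or 4, was left out. In the fits that called none, 4 to 7 of the 18 probes had an unadjusted p under 0.05 by limma, beside 6395 to 6946 of all probes. With all arrays 8 of the 18 probes and 7722 of all 33819 had one, and nothing is read from these counts. The DEG call of *Chka* was made in 1 of these 8 fits, without Pg replicate 3, where the difference was -0.97. In the others the difference of this probe lay between -0.87 and -0.71. Over all probes the count of DEGs fell in the same fits, from 546 to as few as 3 without Co replicate 3.

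*Chka* was also set against the other genes within each array. The quantile-normalized signal of the brightest *Chka* probe relative to the median of the brightest probes of the other 8 tested genes was 0.72 lower in Pg than in Co mice on the log2 scale. The SD was 0.20 among Co arrays and 0.31 among Pg arrays (n = 4 each), and the Pg arrays lay below all Co arrays. The difference was -0.59 with 75th percentile scaling and without normalization between arrays, -0.54 in the authors' values, -0.42 with normexp and -0.44 with the median signal. Relative to the single genes, the difference of *Chka* ran from -0.54 against *Chpt1* to -0.91 against *Cept1*. Against 7 of the 8 genes the Pg arrays lay apart from the Co arrays, the exception being *Chpt1*. The brightest *Chka* probe alone already separated the groups, so the count of 7 adds little to it. These sizes and this count again describe genes chosen with the values known.

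**Figure D3:**
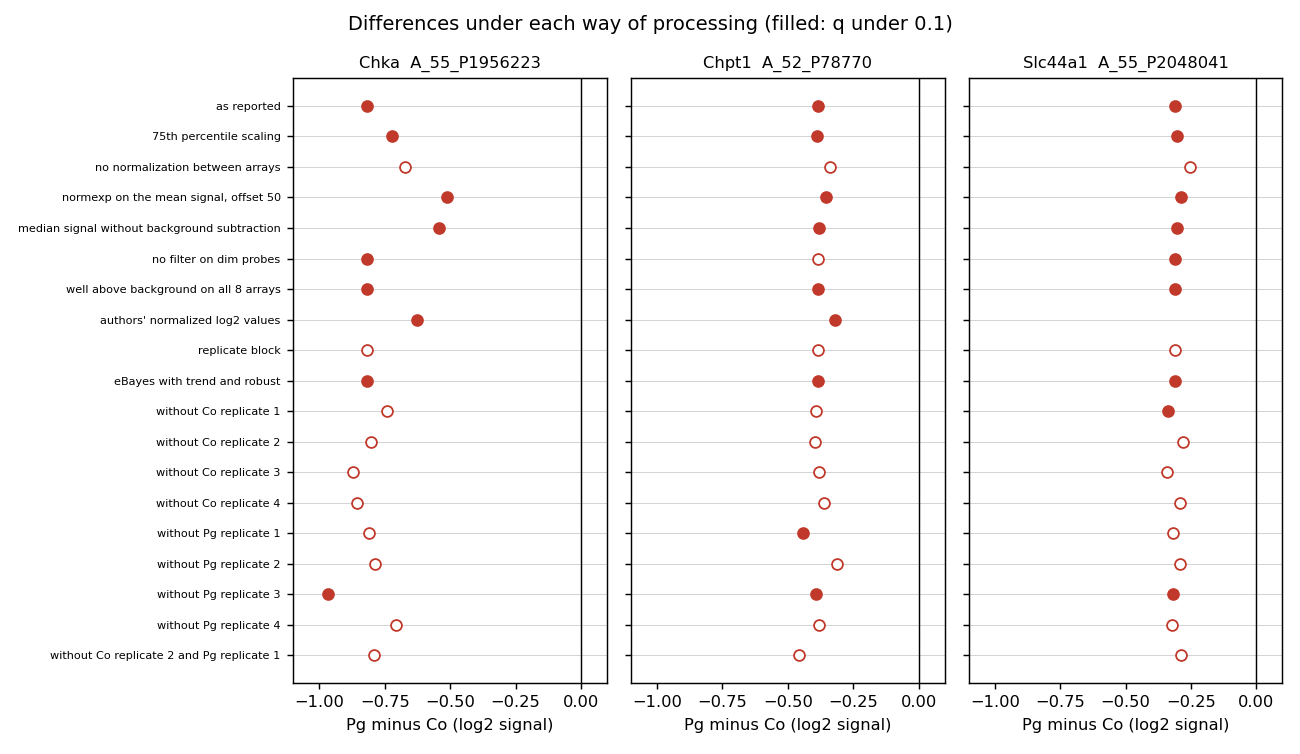
Difference in log2 signal between Pg and Co mice (x axis) of the *Chka*, *Chpt1* and *Slc44a1* probes with an FDR q under 0.1, as reported and under each other way of processing (y axis); filled points have a q under 0.1. All points lie below 0, and most of those with 1 array left out are open; the *Slc44a1* probe has no value in the authors' normalized values.

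The promoters of *Chka* and *Chpt1* are shown because these are the 2 genes with more than 1 probe that separated the groups. For *Chka*, A_55_P2080956 passed the background filter through the Co arrays, with 1 Pg array well above background, and is not taken as separate support. The 250 bases before the annotated gene start were taken from RefSeq (GRCm38.p6) and searched on both strands for the GC box (GGGCGG), the CCAAT box (CCAAT) and the E-box (CACGTG). Capitals mark the GC and CCAAT boxes of either strand, CCGCCC being the GC box of the other one. The *Chka* promoter, chr19:3851523-3851772 on the plus strand, held 2 GC boxes and 2 CCAAT boxes.
Chka promoter: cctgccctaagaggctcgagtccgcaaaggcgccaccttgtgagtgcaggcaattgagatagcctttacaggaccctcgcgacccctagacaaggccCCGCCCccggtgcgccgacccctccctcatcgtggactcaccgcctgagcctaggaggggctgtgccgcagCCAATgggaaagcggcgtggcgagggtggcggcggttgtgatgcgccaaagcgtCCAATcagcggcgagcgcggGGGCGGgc
The *Chpt1* promoter, chr10:88503971-88504220 on the minus strand, held 5 GC boxes and 1 CCAAT box.
Chpt1 promoter: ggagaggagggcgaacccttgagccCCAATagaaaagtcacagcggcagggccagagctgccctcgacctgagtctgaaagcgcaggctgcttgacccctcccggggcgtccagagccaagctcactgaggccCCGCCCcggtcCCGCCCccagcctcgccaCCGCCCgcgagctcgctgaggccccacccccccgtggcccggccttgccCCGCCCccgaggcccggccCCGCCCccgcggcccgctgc

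These matches are common. Of 32851 RefSeq promoter windows of this length, 32.7% held the GC box, 33.8% the CCAAT box and 6.02% the E-box. Windows were found for 9 of the 10 genes, 16 in all, and *Pcyt2* was not among them. The GC box lay in 10 of these 16 windows (7 genes) and the CCAAT box in 6 of them (5 genes), while the E-box lay in none. *Slc44a1*, *Etnk1*, *Pcyt1a* and *Cept1* held GC boxes and no CCAAT box.

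A further 61 genes of choline and phospholipid metabolism were listed by name, in 8 groups, and all were on the array. Of their 120 probes, 87 probes of 53 genes were tested. In the limma fit 6 of these 87 probes had an FDR q under 0.1, all lower in Pg mice and each of a different gene. Among all probes 7.82% had such a q, 6% on the lower side, so the share called in the list was near that of all probes. The median difference of the 87 probes was -0.10, with 60 lower and 27 higher, beside 19516 lower and 14303 higher among all 33819 probes.

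Phosphatidylcholine breakdown held 2 of the 6, among 26 probes of 15 genes. *Gpcpd1* encodes an enzyme that splits glycerophosphocholine and so releases choline. Its probe A_52_P384069 had 9.58, 9.40, 9.45 and 9.61 in Co mice and 9.01, 8.87, 8.99 and 9.10 in Pg mice, so that it fell by 0.52 ± 0.08 (SE, n = 4 each; limma, q = 0.041). The other 3 *Gpcpd1* probes had differences of -0.25, -0.21 and -0.19 and did not pass the test. *Pld1* encodes a phospholipase D, which releases choline from phosphatidylcholine. Its probe A_55_P2713340 had 5.34 to 6.26 in Co mice and 4.91 to 5.34 in Pg mice, and it fell by 0.76 ± 0.20 (q = 0.083), while the brightest *Pld1* probe differed by -0.21 (q = 0.28). The difference of A_55_P2713340 was -0.32 with normexp, -0.30 with the median signal and -0.41 in the authors' values, and it was called in 4 of 18 alternatives.

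*Phospho1*, a phosphatase acting on phosphocholine and phosphoethanolamine, was the called gene of the ethanolamine branch, which had 10 tested probes of 6 genes. Its only probe had 7.20, 7.38, 7.38 and 7.27 in Co mice and 6.92, 6.93, 6.83 and 6.65 in Pg mice, and it fell by 0.48 ± 0.08 (SE, n = 4 each; limma, q = 0.049). *Etnk2*, a second ethanolamine kinase gene, had the largest difference by its brightest probe in that group, -0.57, with q = 0.22 and 1 Pg array well above background.

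Choline oxidation and methyl donors held 2 called genes, among 12 probes of 7 genes. *Aldh7a1*, which encodes a dehydrogenase of the step to betaine, fell by 0.41 on A_52_P503071 (q = 0.075), while its brighter probe A_55_P2101231 had a difference of 0.12 (q = 0.38). The difference of A_52_P503071 was -0.24 with normexp and in the authors' values and -0.21 with the median signal, and it was called in 4 of 18 alternatives. *Mat2b*, a subunit of the methionine adenosyltransferase that makes S-adenosylmethionine, fell by 0.26 on A_52_P288811 (q = 0.092). Its 2 other probes had differences of -0.09 and -0.34. *Ahcy*, whose enzyme clears S-adenosylhomocysteine, differed by -0.44 without overlap of the groups (q = 0.16).

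Sphingomyelin exchange, with 12 probes of 7 genes, held *Sgms1*. This sphingomyelin synthase gene fell by 0.25 on A_52_P371154 (q = 0.092), while A_55_P1956762 differed by 0.28 in the other direction (q = 0.17). *Smpd3*, a sphingomyelinase gene, differed by -0.33 ± 0.30. The probes of *Aldh7a1* and *Sgms1* thus pointed in both directions.

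No probe was called in the other 4 groups in the limma fit, where 0, 2, 2 and 1 probes had an unadjusted p under 0.05 in the order below. The choline and ethanolamine transporters had 6 tested probes, and their median difference was 0.01. In CTP synthesis (4 probes) *Ctps*, which encodes a CTP synthase, was higher on every Pg array than on any Co array, 11.27 to 11.50 against 11.09 to 11.24, with a difference of 0.23 ± 0.07 (q = 0.11). Among the lysophospholipid acyltransferases (10 probes) the brightest *Lpcat1* probe differed by -0.27 ± 0.19 and a second one by 0.28 ± 0.26. The largest difference of the whole list, named after its value was seen, was that of *Lpcat2* A_55_P2809820, 1.39 ± 0.52 (q = 0.17), with 3.17 to 4.64 in Co mice and an overlapping 4.46 to 6.79 in Pg mice. Only 2 Co and 3 Pg arrays measured it well above background. The other tested *Lpcat2* probe differed by 0.16 ± 0.24. In phosphatidylcholine transfer and export (7 probes) *Pctp*, a phosphatidylcholine transfer protein gene, differed by 0.29 ± 0.14 (q = 0.27).

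With 1 array left out, the count of 6 probes was 5 without Pg replicate 3 and 4 without Co replicate 4. It was 2 when Co replicate 1 or Pg replicate 1, 2 or 4 was left out, 1 without Co replicate 2 and 0 without Co replicate 3. In that last fit 22 of the pathway probes had an unadjusted p under 0.05 by limma, beside 6570 of all probes. With all arrays these counts were 25 and 7722. *Gpcpd1* A_52_P384069 was called in 7 of the 8 fits, with q = 0.107 without Co replicate 3. *Phospho1* was called in 6, with q = 0.115 without Co replicate 2 and 0.113 without Co replicate 3. *Pld1*, *Aldh7a1* and *Sgms1* were each called in 1 of the 8 fits and *Mat2b* in 0. Without Pg replicate 3 the 5 called probes included those of *Gpcpd1*, *Phospho1* and *Sgms1* but not the other 3.

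**Figure D4:**
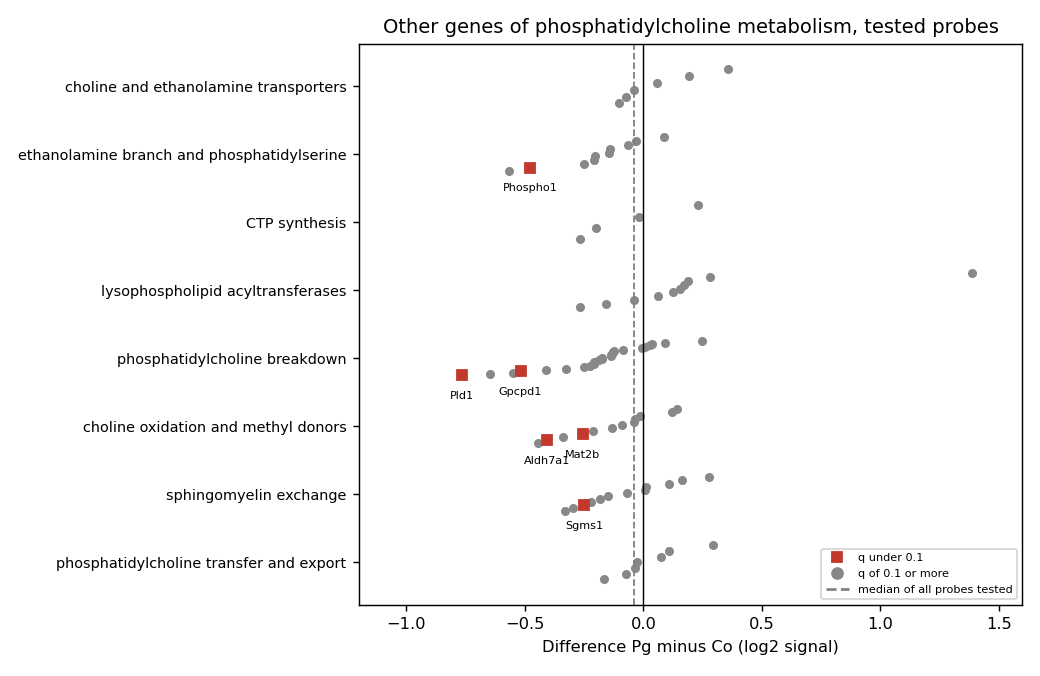
Difference in log2 signal between Pg and Co mice (x axis; negative is lower in Pg mice) of the 87 tested probes of other phosphatidylcholine metabolism genes, by group (y axis; points are spread vertically only for visibility). Red squares mark the 6 probes with a q under 0.1, all left of 0, and the dashed line is the median of all probes tested, -0.04.

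Genes whose pattern over the 8 arrays was most like that of *Chka* A_55_P1956223 were ranked by the root-mean-square distance between log2 signals, each probe centred on its own mean. The 5 nearest were *Galnt17* (named *Wbscr17* on the array) at 0.08, *Klhl22* at 0.10, *Nfil3* at 0.12, *Zfand4* at 0.12 and *Adora2b* at 0.12. Within a distance of 0.20 lay 52 probes. *Nfil3*, a transcriptional repressor of the circadian clock, had 12.57, 12.65, 12.40 and 12.12 in Co mice and 11.66, 11.52, 12.11 and 11.46 in Pg mice. *Adora2b*, an adenosine receptor gene, had 6.61, 6.43, 6.24 and 6.34 in Co mice and 5.56, 5.37, 5.81 and 5.48 in Pg mice. Since these genes were picked for their likeness to *Chka* on the same 8 arrays, their shared pattern is no separate result.

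Pg replicate 3 also stood apart in some markers of other cells, low in some and high in others. *S100a8*, a neutrophil gene, had 4.56 to 5.33 in Co mice and 8.59, 8.32, 5.18 and 6.75 in Pg mice, so that replicate 3 lay within the Co range. *S100a9* had 6.52 to 7.27 in Co mice and 10.56, 10.17, 6.99 and 7.38 in Pg mice. Of 7 neutrophil genes, 5 were tested and none passed the test. Their mean log2 signal was at most 8.24 in Co mice and 9.69, 9.63, 8.09 and 8.68 in Pg mice, while their summed signal was set mainly by *Csf3r*, at 15.26 to 15.73 on the 8 arrays. On Pg replicate 3 *Csf3r* had its highest value, 15.73, and so did the untested *Cxcr2*, 5.24. *Ly6g*, at 8.66, and *Mmp8*, at 3.91, had their lowest values on Pg replicate 3. The 7 macrophage genes had their lowest mean log2 signal on that array, 9.11, against 9.26 to 9.95 in Co mice and 9.84 to 10.50 in the other Pg mice. Over 3 red blood cell genes the mean was also lowest there, 12.61, with 13.98 to 14.84 in Co mice and 13.50 to 14.75 in the other Pg mice. None of the 3 passed the test, and the differences were -0.63 ± 0.51 for *Alas2*, -0.41 ± 0.36 for *Hba-a1* and -0.80 ± 0.48 for *Hbb-b1*. Of 5 lymphocyte genes, 3 were tested and none passed the test, with means of 6.33 to 6.59 in Co mice and 6.22 to 6.65 in Pg mice. Their highest mean, 6.65, was on Pg replicate 3. Without Pg replicate 3 the *Chka* difference was -0.97, and without Co replicate 2 and Pg replicate 1, the arrays with the highest mean of the adipocyte genes, it was -0.79. Among the 5 endothelial genes *Kdr* rose by 0.57 (q = 0.057), while *Pecam1* differed by -0.20 (q = 0.15), *Tek* by -0.14, *Cdh5* by 0.13 and *Emcn* by 0.10. Of the 7 tested brown adipocyte genes 5 were higher and 2 lower in Pg mice, and none passed the test. *Cox7a1* was higher by 0.16 without overlap of the groups (q = 0.14). *Dio2* differed by 0.59 (q = 0.13) and *Ppargc1a* by -0.36 (q = 0.43). Of the 12 muscle genes *Atp2a1* fell by 0.44 (q = 0.041). The mean log2 signal of the muscle genes was 15.90 on Pg replicate 1 and 16.28 on Co replicate 3 against 16.52 to 16.89 on the other arrays, and *Myh4* ran from 11.38 on Pg replicate 1 to 17.07. The part of these cells in the *Chka* values was not tested.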

How the data were processed

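The authors deposited, for each of the 8 arrays, the scanner output of Agilent Feature Extraction 11.0.1.1, which holds the intensity of every spot, background-subtracted and detrended within the array but not normalized between arrays. They also deposited their own quantile-normalized log2 values, used here as an alternative only. The log fold changes, t statistics, p-values, q-values and log odds of the authors' comparison in that table were not used.

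Of 59305 spots that are not controls, population outliers (90 to 150 per array) were left out, and the rest were averaged to 56605 probes. Processed intensities were quantile-normalized and log2-transformed, with values under 1 set to 1 first. The 33819 probes above background on 4 or more arrays were compared between Pg and Co in R 4.3.3 (limma 3.58.1, lmFit then eBayes, two-sided), and p-values were adjusted over them by Benjamini and Hochberg. The limits were a q under 0.1 and, for a DEG, a fold change above 1.5. The steps were tested on simulated data.

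The members and lists were chosen with earlier results of these data known. The genes named are every member, each listed pathway gene with a q under 0.1, the tested gene of each group with the largest difference by its brightest probe, the 5 genes most like *Chka*, and markers that were absent or moved with the group. One gene that this rule names is not reported here. Probes keep the array's gene names, or those of RefSeq through the accession. Alternatives changed the background correction, normalization, filter, spread estimate, block and arrays used. Precision is limited by the number of arrays. The labels name 4 samples per group, and p-values measure the spread between these samples.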

Additional observations from a re-analysis of the deposited data

Results flagged for a closer look

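Of 66 groups of 4 arrays examined (Co and Pg arrays of the probes named), 2 had a single array far from the other 3, where chance gives about 1 in 20. On *Slc44a1* A_55_P2048041 the log2 signal of Pg replicate 2 was 8.24, against 8.32 to 8.33 on the other Pg arrays. On *Aldh7a1* A_52_P503071 the log2 signal of Co replicate 4 was 6.90, against 7.15 to 7.17 on the other Co arrays.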

How the results depend on the processing

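The DEG count over all probes, 546 (106 higher and 440 lower in Pg mice), was 283 (137 and 146) with 75th percentile scaling, 27 (20 and 7) without normalization between arrays, 94 (66 and 28) with normexp, 108 (75 and 33) with the median signal, 106 (60 and 46) in the authors' values and 318 (107 and 211) among probes well above background on all 8 arrays. The excess of lower DEGs thus turned to an excess of higher ones without normalization, with normexp, with the median signal and in the authors' values. The count of called member probes, 3, was 0 without normalization between arrays, and their DEG count, 1, was 0 there, with normexp and with the median signal. The pathway count, 6, was 0 without normalization between arrays, 3 without a filter on dim probes and 3 in the authors' values. The median difference of the member probes, -0.16, was -0.081 with 75th percentile scaling, -0.031 without normalization between arrays and -0.11 with normexp. The difference of *Chka* against the other genes, -0.72, was -0.42 with normexp and -0.44 with the median signal. With 1 array left out, the DEG count ran from 3 (without Co replicate 3) to 697 (without Pg replicate 3), the member count from 0 to 3, their DEG count from 0 to 1, the pathway count from 0 to 5 and the median difference from -0.18 to -0.12. Without Co replicate 2 and Pg replicate 1, chosen after seeing the data, the DEG count was 1 and the other 3 counts were 0. None of the 3 member probes and 6 pathway probes called changed sign under any alternative that gave a value, and the cause of these shifts was not tested.

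With the replicate number as a block, which is also the column on the slide, the 4 counts of calls were 0 by limma, where 5 member probes, 23 pathway probes and 7392 probes in all had an unadjusted p under 0.05. Deviations of same-numbered arrays from their group means correlated by 0.06, -0.03, -0.07 and 0.18, so the numbers were not taken as pairs.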
